A study of Mus musculus with 2 samples.

Results

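The expression of 10 genes for transcription factors of the hypothalamus was followed in RNA sequencing of embryonic mouse telencephalon, compared between a conditional knockout of the histone variant H2A.Z and a floxed control. They were chosen by name, with earlier results of these libraries known: Otp, Sim1, Sim2, Arnt2, Pou3f2, Nr5a1, Hmx2, Hmx3, Bsx and Fezf1. All 10 were found among the 19202 genes of the deposited table by their Ensembl identifiers. The samples came from telencephalic tissue at embryonic day 12 of C57BL/6 mice, 1 labelled H2AZcKO, a conditional knockout, and 1 labelled H2AZfl/fl, whose floxed alleles can be deleted by Cre. The Cre driver, the cells in which it acts, the sex of the embryos and the number pooled were not stated in the material used. The tissue label reads telencephalon while the protocol speaks of cerebral cortex. Triplicates are mentioned for the series, yet each genotype has a single column of counts, called a library here, so no difference has a replicate check and no p-value was computed.

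The hypothalamus arises next to the telencephalon, and its nuclei are specified by combinations of transcription factors. In the mouse the homeodomain protein OTP and the bHLH-PAS protein SIM1, which dimerises with ARNT2, are needed for the neuroendocrine neurons of the paraventricular and supraoptic nuclei. POU3F2, also called Brn2, acts downstream of them in the neurons that make vasopressin, oxytocin and corticotropin-releasing hormone. NR5A1, the nuclear receptor SF-1, is needed to form the ventromedial nucleus, and HMX2, HMX3 and BSX act in the arcuate and tuberal region. OTP and SIM1 also mark cells at the border of hypothalamus and telencephalon and in the medial amygdala, while ARNT2 and POU3F2 are made across the developing brain.

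Total counts were 8839840 for the cKO library and 8891198 for the control. H2afz, the targeted gene, stood at 191 CPM (read counts relative to the TMM-scaled library size) in the cKO and 289 CPM in the control, a ratio of 0.661 (95% interval 0.621 to 0.703). The deleted exons were not stated, so this count over the whole gene does not measure the deletion itself. Ratios are cKO over control, and each interval is an exact binomial (Clopper-Pearson) interval that covers counting error only. The libraries also differed in sex-linked transcripts, with Xist at a ratio of 33.0 and Ddx3y at 0 counts against 249. All 10 genes described are autosomal. Of 10 telencephalic marker genes, all were at 1 CPM or more, with a summed level of 2774 CPM in the cKO and 2484 CPM in the control. Fewer cells of a type and less RNA per cell cannot be told apart in such bulk tissue.

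Upstream sequences of the 4 genes of the cascade are shown because 2 of them, Otp and Sim1, were far lower in the cKO, while Arnt2 and Pou3f2 lay near the control. They are RefSeq sequences of build GRCm38.p6, on the strand of the gene, from 250 bases before the RefSeq start up to the first base that GENCODE M21 places in an exon of that gene. Otp is at chr13:94875386-94875601 (plus strand), Sim1 at chr10:50895401-50895472 (plus), Arnt2 at chr7:84410177-84410288 (minus) and Pou3f2 at chr4:22488367-22488616 (minus). Capitals mark matches on either strand to the GC box GGGCGG, the CCAAT box CCAAT or ACGTG, the core of the site bound by SIM and ARNT2 dimers.
Otp: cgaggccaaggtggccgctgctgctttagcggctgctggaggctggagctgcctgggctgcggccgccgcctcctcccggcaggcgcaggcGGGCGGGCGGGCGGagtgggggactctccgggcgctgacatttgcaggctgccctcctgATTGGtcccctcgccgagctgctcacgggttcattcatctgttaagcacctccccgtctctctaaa
Sim1: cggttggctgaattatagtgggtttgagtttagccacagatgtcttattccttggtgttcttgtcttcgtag
Arnt2: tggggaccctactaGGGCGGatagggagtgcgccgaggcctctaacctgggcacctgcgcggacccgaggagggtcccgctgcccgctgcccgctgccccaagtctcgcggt
Pou3f2: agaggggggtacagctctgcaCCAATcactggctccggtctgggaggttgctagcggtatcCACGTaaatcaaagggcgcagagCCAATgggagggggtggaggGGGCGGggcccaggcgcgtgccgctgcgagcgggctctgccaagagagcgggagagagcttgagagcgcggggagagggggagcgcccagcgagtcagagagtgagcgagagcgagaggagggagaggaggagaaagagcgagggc

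Within the full 250 bases before the start, the GC box was found for Otp, Arnt2 and Pou3f2 and in 32.7% of 32851 such windows of all genes. CCAAT was found for Otp and Pou3f2 and in 33.8% of all windows. The core ACGTG, which is also part of the E-box CACGTG, was found for Pou3f2 and in 16.6% of all windows. Sim1 held a TATAAA box, found in 12.4% of all windows, beyond the stretch printed. It thus lay before the RefSeq start but not before the first base of a Sim1 exon in GENCODE M21. The E-box, the homeodomain site TAATTA, the POU octamer ATGCAAAT and the NR5A site AAGGTCA matched in none of these 4 windows. Observed over expected CpG was 0.678 for Otp, 0.853 for Sim1, 0.877 for Arnt2 and 0.761 for Pou3f2, against a median of 0.373 over all windows. CpG density was thus above that median both for the pair with low ratios and for the pair near 1. A match is a description of letters and not of a bound site.

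Otp and Sim1 were lower in the cKO by similar factors. Otp (ENSMUSG00000021685, chromosome 13, 94875602 to 94885130, positions as deposited, on GRCm38) had 71 counts in the cKO and 262 in the control, or 8.15 and 29.1 CPM. Its ratio was 0.280 (0.213 to 0.366), a difference of 3.57-fold. Sim1 (ENSMUSG00000019913, chromosome 10, 50895651 to 50989152) had 14 counts against 56, or 1.61 and 6.21 CPM, a ratio of 0.259 (0.133 to 0.471). Both counting intervals lay wholly below 0.5, as they did for 0.137% of all 14586 genes tested, those with at least 1 CPM in the higher library.

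The proportion between the 2 genes was nearly the same in both libraries. Of the reads of Otp and Sim1 together, Sim1 took 16.5% in the cKO (9.31 to 26.1, Clopper-Pearson) and 17.6% in the control (13.6 to 22.3). Per kilobase of exon, the level of Sim1 was 0.0659 of that of Otp in the cKO and 0.0714 in the control. The overlap of these intervals does not show that the proportions are equal.

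Sim2, a paralog of Sim1 and a bHLH-PAS repressor in many assays, was near the limit of detection. It had 1 count in the cKO and 11 in the control, or 0.115 and 1.22 CPM. The ratio was 0.0941, with a wide interval from 0.00219 to 0.647. Of the reads of Sim1 and Sim2 together, Sim2 took 6.67% (0.169 to 31.9) in the cKO and 16.4% (8.49 to 27.5) in the control, so any change in their proportion was not detectable at this depth.

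Arnt2, the dimer partner of SIM1, was abundant and close to the control. It had 2434 counts in the cKO and 2879 in the control, or 279 and 319 CPM, a ratio of 0.875 (0.828 to 0.923). The interval lay below 1 and far above the ratios of Otp and Sim1. Pou3f2 had 1157 counts against 1133, or 133 and 126 CPM, a ratio of 1.06 (0.973 to 1.15). It was the only one of the 10 genes above the control, and its interval included 1.

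Per kilobase of exon, Arnt2 was the most abundant of the 10 genes in the control at 41.5 CPM, followed by Pou3f2 at 22.5, Otp at 10.1 and Fezf1 at 9.67. The next was Hmx3 at 1.52, and the other 5 lay between 0.289 CPM per kilobase for Sim2 and 0.811 for Nr5a1. In the cKO the order at the top was Arnt2 at 36.3, Pou3f2 at 23.8, Fezf1 at 8.10 and Otp at 2.83. Otp and Fezf1 thus stood side by side in the control and apart in the cKO.

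Nr5a1, the determinant of the ventromedial nucleus, had the lowest ratio after Sim2. It had 3 counts in the cKO and 31 in the control, or 0.344 and 3.44 CPM, a ratio of 0.10 (0.0196 to 0.321). Its gene lies on chromosome 2 at 38692656 to 38714542. Of the reads of Nr5a1 and Otp together, Nr5a1 took 4.05% (0.844 to 11.4) in the cKO and 10.6% (7.30 to 14.7) in the control, and these intervals overlap. The antisense gene Nr5a1os overlaps it on the other strand, and whether the counting used strand was not stated.

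The tuberal and arcuate genes Hmx2, Hmx3 and Bsx were each at single-digit counts in the cKO. Hmx2 had 6 counts against 19, a ratio of 0.327 (0.107 to 0.851). Hmx3 had 8 against 20, a ratio of 0.414 (0.158 to 0.981). Bsx, a homeobox gene that in the mouse acts in arcuate neurons making NPY and AgRP, had 7 against 20, a ratio of 0.362 (0.129 to 0.891).

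Hmx2 and Hmx3 are paralogs 3847 bases apart on chromosome 7, at 131548773 to 131556589 and 131542867 to 131544925. Hmx3 took 57.1% (28.9 to 82.3) of their joint reads in the cKO and 51.3% (34.8 to 67.6) in the control. Both lie within the GENCODE M21 span of Fgfr2 on the opposite strand. Fgfr2 itself had 613 counts against 642, a ratio of 0.988 (0.883 to 1.11). The overlap is one of whole gene spans. Whether exons overlap, so that reads could not be told apart without strand, was not examined.

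Fezf1, a zinc finger gene of the early forebrain that is also needed in the olfactory system, stood apart from the other genes of low or middle level. It had 170 counts in the cKO and 210 in the control, or 19.5 and 23.3 CPM, a ratio of 0.837 (0.680 to 1.03). The interval included 1 and did not overlap that of Otp, which had a similar level in the control.

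**Figure D1:**
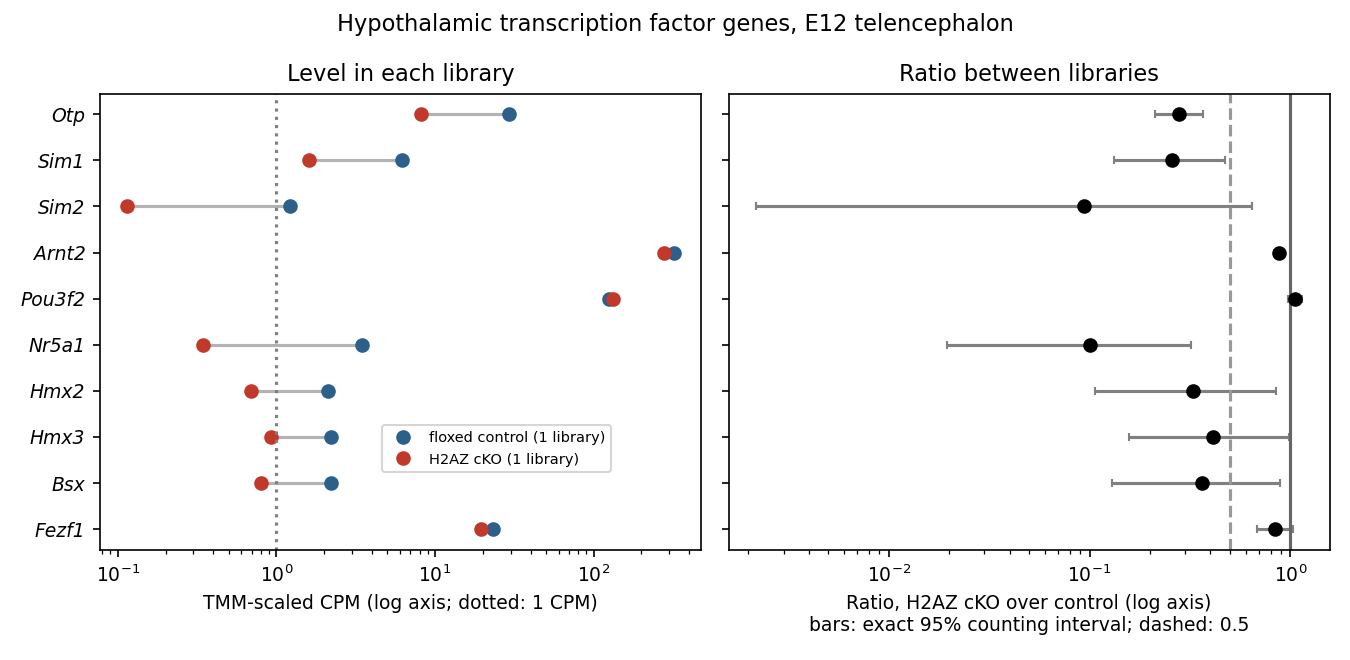
Level of the 10 genes in each library (left, TMM-scaled CPM, log axis, 1 point per library) and the ratio of H2AZ cKO over floxed control (right, log axis, bars are exact 95% counting intervals). Arnt2, Pou3f2 and Fezf1 lie at ratios of 0.837 to 1.06, and the other 7 genes at 0.414 or less.

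In all, 9 of the 10 genes had a ratio below 1 and for 8 the counting interval lay below 1, as it did for 11.2% of all genes tested. On the log2(CPM + 1) scale, which understates differences at low counts, 7 were at least 1.5-fold lower and 3 (Otp, Sim1 and Nr5a1) at least 2-fold lower. Over all genes tested these shares were 3.03% and 0.48%. None was 1.5-fold or 2-fold higher, against 1.92% and 0.151% of all genes. The median log2 ratio was -0.86 for the 10 genes and 0.01 over all genes tested. The genes were named with these ratios in view, so the counts describe them and are no evidence of a common change. All 10 reached 1 CPM, but 5 of them (Sim2, Nr5a1, Hmx2, Hmx3 and Bsx) did so only in the control, and such genes had to differ in that direction.

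Ratios were also set beside those of all genes of similar level. Of the 6 with a mean below 5 CPM, 6 were at least 1.5-fold lower and 2 at least 2-fold lower. Among all genes at that level the shares were 10.2% and 1.51%. Of these 6 members, 5 passed the floor only through the control and had to be lower. The shares over all genes include those that passed through either library, so the 2 cannot be compared directly. At a mean of 5 to 50 CPM, Otp was past both sizes and Fezf1 past neither, and among all genes there 1.87% and 0.351% were. At 50 CPM or more, neither Arnt2 nor Pou3f2 was past 1.5-fold, and of all such genes 0.0389% were. From the lowest log2 ratio of the 14586 genes, Nr5a1 ranked 9, Otp 10 and Sim1 14. The only autosomal genes below Otp were 4: Nkx2-4, Nkx2-2, Sox14 and Nr5a1.

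**Figure D2:**
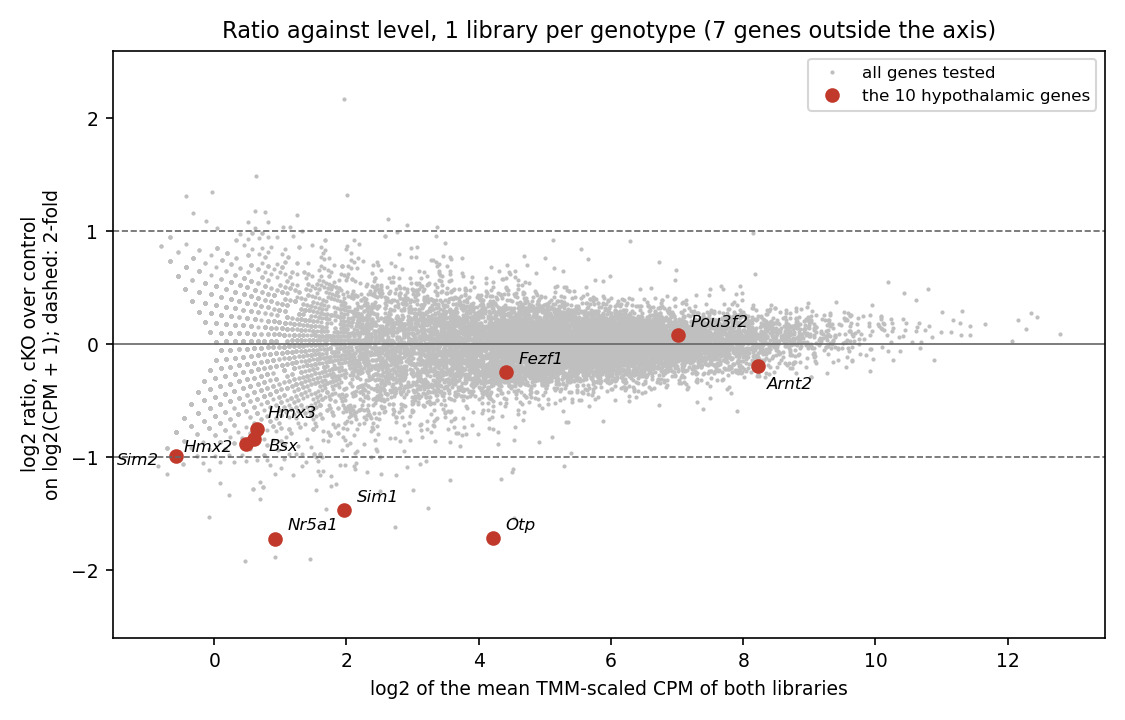
Log2 ratio (cKO over control, log2(CPM + 1) scale) against the log2 mean level, for every gene tested (grey) and the 10 hypothalamic genes (red, 1 library per genotype). Nr5a1, Otp and Sim1 lie below the dashed line of 2-fold, Arnt2 and Pou3f2 lie within the cloud at high level, and 7 genes fall outside the axis.

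The authors' deposited table, which sets 1 column against 1 column by an unnamed test, lists an adjusted p under 0.05 for 5 of the 10 genes. All 5 had a log2 fold change below 0 there. Over all rows of the authors' deposited table the share was 9.55%, or 5.97% with a log2 fold change below 0. Otp had an adjusted p of 3.69e-24, Sim1 of 1.2e-05, Nr5a1 of 1.5e-05 and Sim2 of 0.0252 in the authors' deposited table, and these 4 were marked significant, as were 0.677% of all rows in the lower direction. Arnt2 had an adjusted p of 2.7e-07 in the authors' deposited table but a log2 fold change of -0.23, short of the size that the mark of significance requires. With no replicate column these p-values compare the libraries and not the genotypes.

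Other regional transcription factors of the hypothalamus were mostly lower as well. Of the 23 on the list, 17 had a ratio below 1 and 6 above, with intervals wholly below 1 for 9 and wholly above 1 for 2. Over all 19202 genes, 9006 had a ratio below 1, with intervals wholly below 1 for 1668 and above for 1857. Summed over the list the ratio was 1.01 (0.966 to 1.06), since Nkx2-1 and other abundant members carry most reads. The median log2 ratio of all 23 was -0.42, and 0.00 over all 19202 genes. Of the 18 that reached 1 CPM, 7 did so only in the control, and 7 were at least 1.5-fold lower and 1 higher. Nkx2-4, a homeobox gene of the hypothalamus, had 0 counts against 25, at least 8.05-fold lower with the cKO set at 3 counts, and the interval of its ratio reached up to 0.164. Nkx2-2, which patterns the ventral neural tube, had 5 counts against 44, a ratio of 0.118 (0.0364 to 0.296).

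Sox14, which marks GABAergic cells of the thalamus and pretectum and is also made in the hypothalamus, had 2 counts against 32, a ratio of 0.0647 (0.00751 to 0.253). Foxb1, a gene of the mammillary region, had 7 against 23, a ratio of 0.315 (0.114 to 0.758). Foxd1 had 10 against 26 (0.398, 0.171 to 0.853), and Six6, a gene of the ventral hypothalamus and retina, had 2 against 11 (0.188, 0.0203 to 0.862). Nkx2-1, which is made in the hypothalamus and in the medial ganglionic eminence of the telencephalon, was higher, at 1352 counts against 883. The 6 genes named with low ratios had 44 counts or fewer in each library.

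Of 20 neuropeptide and transmitter genes of the hypothalamus, 16 had counts to analyse here, 7 with a ratio below 1 and 9 above. Intervals were wholly below 1 for 2 of them and wholly above for 4. Trh, a hormone gene of paraventricular neurons, had 12 counts against 27, a ratio of 0.460 (0.212 to 0.939). Pmch, the melanin-concentrating hormone gene of the lateral hypothalamus, had 2 against 13 (0.159, 0.0174 to 0.703). The arcuate genes Pomc and Cartpt stood at 14 against 28 and 4 against 13, with intervals that included 1. Npy, which is made by arcuate neurons and also by cells of the telencephalon, was higher, at 235 against 153, a ratio of 1.59 (1.29 to 1.96). Crh, the corticotropin-releasing hormone gene, went the other way with 8 counts against 0, at least 2.76-fold higher with the control set at 3 counts. The interval of its ratio began at 1.77.

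Gnrh1, whose neurons enter the forebrain from the nasal placode, had 11 counts against 3, a ratio of 3.79 (1.0 to 21.2). Sst, which is also made by interneurons of the ganglionic eminences, had 1149 against 713, a ratio of 1.67 (1.52 to 1.83). The hormone genes Trh and Crh, both made by paraventricular neurons, thus lay on opposite sides of 1, each with few counts.

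Paralogs outside the 10 genes lay near 1 where they reached 1 CPM. These 5 are relatives of Pou3f2, Fezf1 and Arnt2, whose own ratios lay at 0.837 to 1.06. All 5 were within 1.5-fold, and the median log2 ratio was 0.04. Pou3f1 stood at 1.20 (1.06 to 1.36), Pou3f3 at 1.11 (1.07 to 1.15), Pou3f4 at 0.986 (0.825 to 1.18), Fezf2 at 1.03 (0.962 to 1.10) and Arnt at 1.03 (0.896 to 1.17). Of these, Pou3f4 alone was below 1, joined by Arnt when libraries were scaled by total count. Nr5a2 and Hmx1 stayed below 1 CPM, so this list compared no paralog of a gene with a low ratio. Within the 10, the paralogs Sim1 and Sim2 were both low, as were Hmx2 and Hmx3.

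The other genes of the bHLH-PAS family were also close to the control, with a median log2 ratio of 0.04 over 11 genes, 6 above 0 and 5 below, a split that turned to 5 and 6 with total-count scaling. Hif3a, a hypoxia-inducible factor, was lowest, at 127 counts against 202 (0.650, 0.517 to 0.816). Npas1, a repressor made in ventral telencephalic interneurons, was highest, at 46 against 29 (1.64, 1.01 to 2.71). Epas1 stood at 0.842 (0.687 to 1.03), Npas2 at 1.29 (0.460 to 3.77), Clock at 0.881 (0.742 to 1.05) and Npas4 at 1.09 (0.681 to 1.74).

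**Figure D3:**
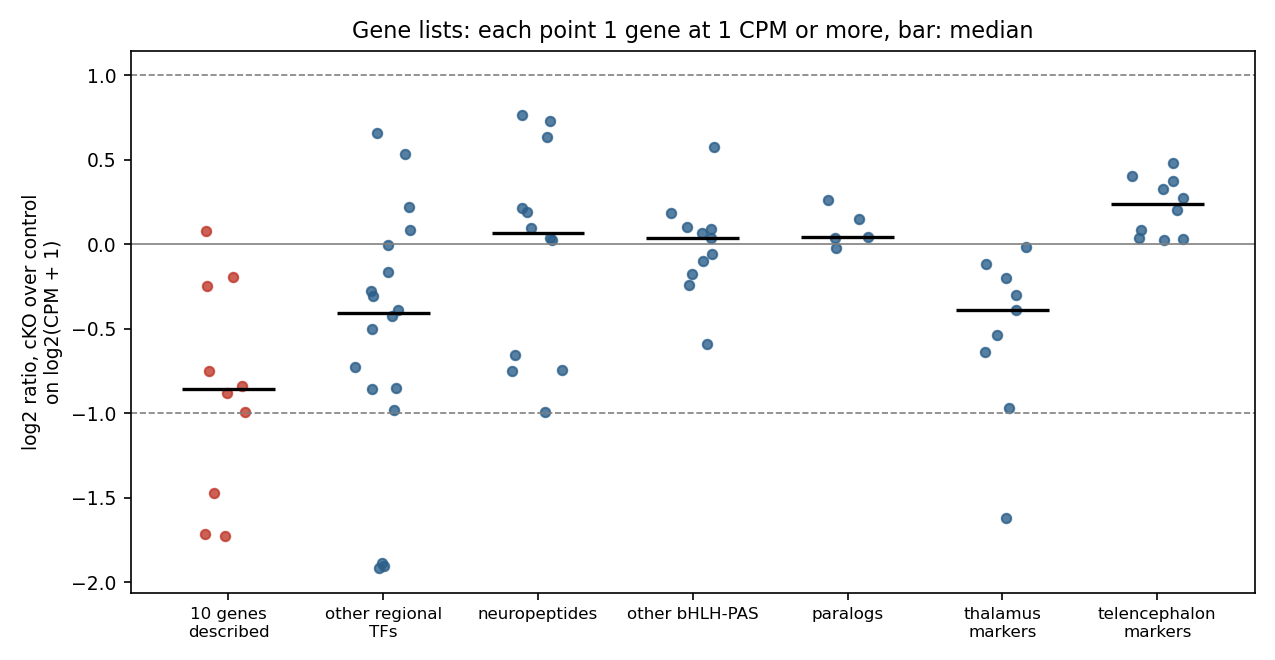
Log2 ratio (cKO over control, log2(CPM + 1) scale) of each gene at 1 CPM or more in 7 lists (1 point per gene, bar at the median, dashed lines at 2-fold). The medians are -0.86 for the 10 genes, -0.40 for other regional factors, 0.07 for neuropeptides, 0.04 for bHLH-PAS genes and for paralogs, -0.39 for thalamus and 0.24 for telencephalon markers.

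Markers of the thalamus and of the telencephalon, the tissue sampled, differed in direction. All 9 thalamic marker genes had a log2 ratio below 0, with a summed level of 148 CPM in the cKO and 208 CPM in the control, a ratio of 0.710 (0.661 to 0.763), and 5 of the 9 had an interval below 1. All 10 telencephalic markers were above 0, and 7 were with total-count scaling, with a summed ratio of 1.12 (1.10 to 1.14). The 8 genes with under 30 CPM in the control, all but Arnt2 and Pou3f2, together had 280 counts against 629, a ratio of 0.461 (0.399 to 0.531). That subset leaves out the 2 genes nearest the control. Otp gave 262 of its control counts, and 5 of the 8 reached 1 CPM only in the control. The low sum thus follows in part from the choice of genes and is not comparable with the marker lists. All 10 together had 3871 against 4641, a ratio of 0.863 (0.827 to 0.901), most of it reads of Arnt2 and Pou3f2. Blood and macrophage markers were higher in the cKO when summed. The summed ratios were 1.91 (1.82 to 2.00) over 7 erythroid genes and 1.47 (1.23 to 1.76) over 7 macrophage genes. Intervals lay above 1 for 6 of the erythroid and 3 of the macrophage genes. The macrophage gene C1qb had a ratio of 0.891 (0.612 to 1.29). The part of tissue boundaries, blood content or embryo sex in the low ratios of the hypothalamic genes was not tested.

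Some of these genes are also made outside the brain, and markers of those tissues were scarce. Of 8 pituitary markers 2 had counts to analyse here, summing to 19 in the cKO and 12 in the control. The 5 eye markers with counts summed to 28 and 24, and 2 olfactory epithelium markers to 61 and 61. For the ear, where Hmx2 and Hmx3 act, 1 marker summed to 6 and 6. The summed ratios ran from 1.03 for the olfactory epithelium and the ear to 1.64 for the pituitary, each with an interval that included 1.

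Genes outside the 10 but beside them on the chromosome were not 1.5-fold lower, except 1. They include the neighbours of Arnt2, Pou3f2 and Fezf1, whose own ratios lay near 1. Hmx2 and Hmx3, both low, neighbour each other and are left out of these counts. The nearest protein-coding gene start on either side, among genes at 1 CPM or more, gave 18 neighbours at 11.6 to 2008 kilobases. Their median log2 ratio was 0.07, with 13 above 0 and 5 below, or 11 and 7 with total-count scaling. Of the 18, 1 was at least 1.5-fold lower, against 3.03% of all genes tested. Otp is flanked by the tubulin cofactor gene Tbca at 1.15 (1.04 to 1.28) and by Wdr41 at 1.06 (0.908 to 1.25). Nr5a1 lies between the proteasome gene Psmb7 at 1.17 (1.07 to 1.27) and Nr6a1 at 0.814 (0.546 to 1.21). Bub3, 11.6 kilobases from Hmx2, stood at 1.05 (0.981 to 1.13), and Acadsb beyond Hmx3 at 0.981 (0.858 to 1.12).

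On one side of Sim1 is Ascc3 at 1.02 (0.868 to 1.21). On the other, 1127 kilobases away, is Vgll2, a vestigial-like cofactor gene, with 0 counts against 17. It was at least 5.48-fold lower with the cKO set at 3 counts, and the interval of its ratio reached up to 0.251. Vgll2 reached 1 CPM only in the control, so it had to be lower. Sim2 lies between Chaf1b at 1.19 (1.06 to 1.33) and Hlcs at 1.03 (0.795 to 1.35). Bsx lies between Hspa8 at 1.0 (0.973 to 1.04) and Ubash3b at 0.979 (0.782 to 1.22). The neighbours of Arnt2 (Abhd17c and Fah), Pou3f2 (Fbxl4 and Mms22l) and Fezf1 (Ptprz1 and Cadps2) stood between 0.953 and 1.59.

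**Figure D4:**
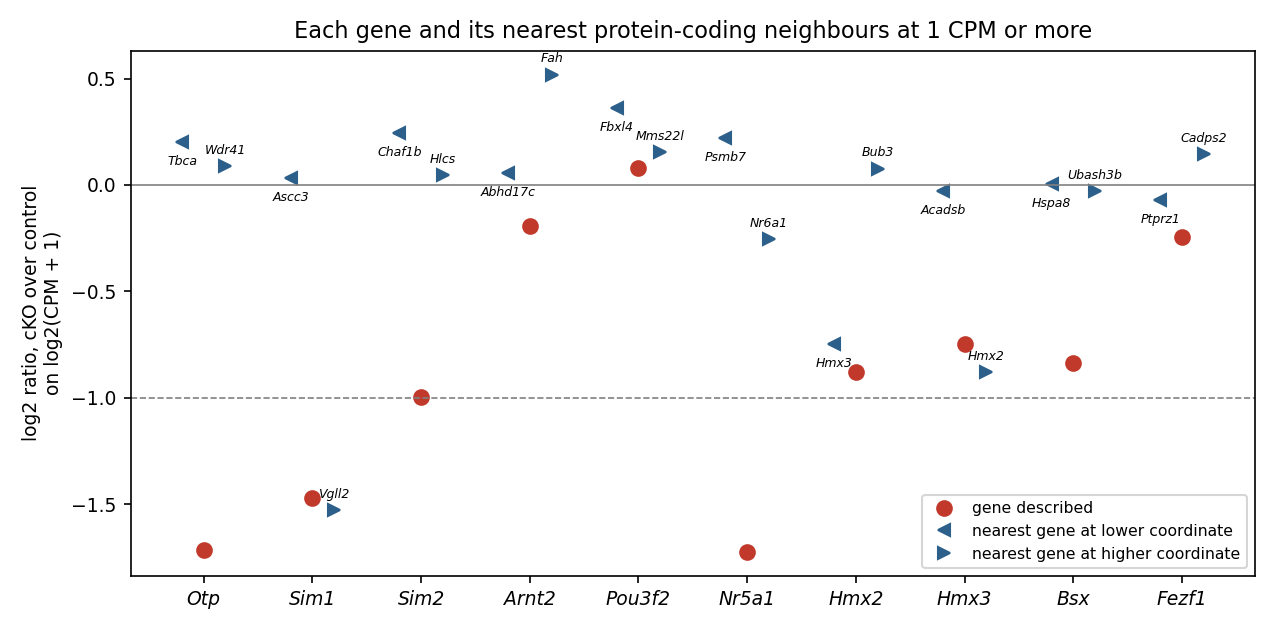
Log2 ratio (cKO over control, log2(CPM + 1) scale) of each of the 10 genes (red circles) and its nearest protein-coding gene start at lower and higher coordinate (blue triangles, genes at 1 CPM or more). Apart from Hmx2 and Hmx3, which neighbour each other, and Vgll2 beside Sim1, the neighbours lie between -0.25 and 0.52.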

How the data were processed

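TopHat2 2.0.12, Bowtie2 2.2.3, HTSeq 0.6.0 and build mm9 are named in the submitters' processing notes, without their roles. The deposited positions instead match GRCm38 (79.1% identical to GENCODE M21). The authors deposited raw read counts per gene, CPM values, their ratio (fold change), its log2 and p-values that set the knockout column against the control column by an unnamed test. The column headed WT was taken as the floxed control. Symbols matched 19112 of 19202 identifiers.

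Counts were scaled with TMM (edgeR 4.0.16, R 4.3.3), and DESeq2 1.42.0 gave alternative size factors. The log2 ratio is on log2(CPM + 1), for 14586 genes at 1 CPM or more in the higher library. Intervals at 95% are Clopper-Pearson, and a count of 0 was set at 3 counts for a bound (0.344 CPM in the cKO, 0.333 CPM in the control). Without molecular identifiers, reads may repeat the same molecule, so intervals cover counting error only. Ratios and intervals were run on simulated counts with counting error only, and changes were placed in genes at a mean of 5 CPM or more. The intervals are exact for such counts, so their coverage there was assured beforehand. That run cannot speak to variation beyond counting or to changed genes of lower level. Of the genes described, 6 (Sim1, Sim2, Nr5a1, Hmx2, Hmx3 and Bsx) have a mean under 5 CPM. Python 3.11.15 was used with scipy 1.17.1.

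The genes and lists were chosen with earlier results of these data known. Genes named are the 10, H2afz, up to 6 per companion list by absolute log2 ratio at 1 CPM or more (all paralogs), the nearest protein-coding neighbours, genes among the 5 nearest to Otp in level, and a few markers (Nkx2-1, Xist, Ddx3y). Some genes that this rule covers are not reported here. Npy, Crh, which misses 1 CPM, Nr5a2, Hmx1, Fgfr2 and Nr5a1os were named after their values were seen. Alternatives were other pseudocounts, floors and scalings.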

Additional observations from a re-analysis of the deposited data

How the results depend on the processing

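With 1 library per genotype no replicate could be left out, and depth limits the 6 genes under 5 CPM. No paired analysis was possible because each genotype has 1 library. The plain ratios of the 10 genes moved only with scaling, from 0.280 to 0.273 for Otp and from 1.06 to 1.03 for Pou3f2, and none crossed 1. The median log2 ratio of the 10 genes was -1.42 with a pseudocount of 0.1 CPM in place of 1, -0.30 with 5 CPM and -0.24 with a floor of 5 CPM. With 0.1 CPM, 7 of them were at least 2-fold lower, and with 5 CPM 1 was at least 2-fold and 3 at least 1.5-fold lower. With total-count scaling, DESeq2 size factors or the authors' CPM, 4 were at least 2-fold lower, as Sim2 crossed that line. In the same order 85, 76 and 83 of 14707 genes tested were at least 2-fold lower. A floor of 5 CPM left 5 of the genes, 2 of them at least 1.5-fold lower. Genes tested numbered 14586 with either pseudocount and 11590 with the floor of 5 CPM. Over all of them, 816, 59 and 161 were at least 1.5-fold lower with a pseudocount of 0.1 CPM, one of 5 CPM and that floor. In the same order, 590, 29 and 90 were at least 1.5-fold higher. For 2-fold these were 296, 9 and 33 lower and 188, 3 and 7 higher. Smaller pseudocounts widen the log2 ratio of low genes by construction. No log2 ratio of the 10 genes changed sign under the settings tried.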

Other observations

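Among the protein-coding genes closest to Otp in level over both libraries, by distance on log2(CPM + 1), were Slc15a2, a peptide transporter gene, Dcc, the netrin receptor gene, Nr2c2 and Syt13. Genes picked for being close to Otp in both libraries are lower in the cKO by that choice, so their low ratios are no separate finding. Slc15a2 had 104 counts (cKO) against 257 (control), at 0.419 (0.330 to 0.528). Dcc had 99 against 315 (0.325, 0.257 to 0.409), Nr2c2 117 against 231 (0.524, 0.416 to 0.657) and Syt13 121 against 285 (0.439, 0.352 to 0.545). The distances ran from 0.50 to 0.71 on the log2 scale, over 2 libraries only, so they describe level and ratio and no shared pattern across conditions.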
